A study of Homo sapiens with 15 samples.

Results

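The HOXB cluster genes are the 10 homeobox genes HOXB1 to HOXB9 and HOXB13, which lie side by side on the minus strand of chromosome 17. They were chosen by symbol, as 10 of the 25679 gene symbols in the count tables, and each has 1 transcript row there. RNA was sequenced from HSSYII, a line of synovial sarcoma cells with the SS18-SSX1 fusion, in 5 groups of 3 libraries. In the first experiment cells received 100 nM dBRD9A, a degrader of BRD9, or its vehicle DMSO, for 6 hr. In the second, cells were infected with a lentivirus that expresses shSS18-SSX1-1 or shSS18-SSX1-2, hairpins against the fusion, or shRenilla, a control hairpin, and were harvested at 96 hr. The virus carried GFP and was given at a multiplicity of infection of 1.0, and no drug selection was applied, so uninfected cells may be part of the second experiment. All 15 libraries come from this single line, which carries the fusion in every group, and the sources do not say whether the 3 libraries of a group came from separate cultures. The p-values therefore reflect how much these libraries vary, and that variation may be technical.

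HOX genes encode transcription factors that give cells their position along the body axis. Within a cluster, genes near the 3′ end such as HOXB1 are switched on early and in anterior tissue such as the hindbrain, and genes near the 5′ end such as HOXB9 and HOXB13 are used later and further back. HOX proteins bind DNA together with PBX and MEIS proteins, retinoic acid switches on the 3′ genes, and Polycomb and MLL complexes keep the genes off or on. SS18 is a subunit of the BAF chromatin remodelling complex, which also exists in a form that contains BRD9, and the fusion places a tail of SSX1 on SS18. The study set removal of BRD9 beside loss of the fusion, and the HOXB genes are followed here through both.

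In the GENCODE annotation on GRCh37, HOXB1 spans chr17:46605888-46608373 and HOXB13 spans chr17:46802125-46806112. The transcription start of HOXB13 is 198 kb from that of HOXB1, whereas HOXB1 and HOXB9 start 95.3 kb apart, so HOXB13 stands alone at the 5′ end. HOXB3, the longest gene, spans chr17:46626232-46682274, and HOXB4 and HOXB5 lie inside that span. The cluster also holds antisense RNAs on the plus strand and a pair of microRNA genes, MIR10A and MIR196A1. The mature microRNAs are shown because HOXB8 carries a known target of miR-196a, with the seed (bases 2 to 8) in capitals, from RefSeq on GRCh38.p14.
hsa-miR-10a-5p: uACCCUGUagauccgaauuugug
hsa-miR-196a-5p: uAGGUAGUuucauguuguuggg
The 3′ UTR of HOXB8, a gene that holds back myeloid differentiation when it stays on, contains a stretch that pairs with 21 of the 22 bases of hsa-miR-196a-5p, at chr17:46690132-46690153 on the minus strand of GRCh37, 414 bases after the end of the coding sequence. The pair left over is G:U, and the next best stretch of the HOXB8 transcript pairs at 13 bases. The site is given with its paired bases in capitals.
HOXB8 site for hsa-miR-196a-5p: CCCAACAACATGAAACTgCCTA
Reads on the microRNA genes were few in these libraries, 42 on MIR10A and 21 on MIR196A1 over all 15, and libraries of this kind do not measure mature microRNAs.

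Of the 10 HOXB genes, HOXB1 has a promoter in the RefSeq table used here (250 bases before to 50 after the start). It is shown because HOXB1 was the member whose detection differed between the experiments, with the motif TGATNNAT in capitals, searched on both strands, which PBX-HOX pairs are known to bind and which serves mouse Hoxb1 in regulating itself.
HOXB1 promoter: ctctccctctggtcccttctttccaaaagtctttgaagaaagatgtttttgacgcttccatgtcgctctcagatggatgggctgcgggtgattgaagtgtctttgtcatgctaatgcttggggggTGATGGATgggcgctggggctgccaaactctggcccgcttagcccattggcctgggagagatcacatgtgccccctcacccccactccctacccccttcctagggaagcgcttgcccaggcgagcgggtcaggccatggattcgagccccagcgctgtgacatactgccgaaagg
This window is chr17:48530962-48531261 on the minus strand of GRCh38.p14, with 1 match whose first base lies at position -125 relative to the start. The motif was present in 7.4% of the 35116 promoters of this length, so a match by itself is common, and the promoter windows of the antisense RNAs HOXB-AS1 and HOXB-AS3 held none.

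Total counts per library were 18576874 to 27027411. Levels are given as CPM, a gene's counts relative to the size of its library with library sizes scaled by TMM over all 15 libraries. This scaling takes most genes as unchanged, so a fall common to the whole transcriptome would not be seen. SSX1, whose mRNA end is part of the fusion, had 20.9, 20.7 and 18.7 CPM with shSS18-SSX1-1 and 29.0, 29.2 and 27.8 CPM with shSS18-SSX1-2, against 77.1, 58.5 and 55.2 CPM with shRenilla. These groups do not overlap, as the labels require. dBRD9A removes BRD9 protein and not its mRNA, so no transcript checks that label. Replicate 1 of shRenilla stood apart from the other 2 libraries of its group, with a chi-square per degree of freedom of 36.5 and 27.0 against them, where no other pair within a group passed 9.85. Results of HOXB genes that turn on it are given with and without it.

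Detection of the HOXB genes ranged from a handful of reads to the 4540 counts of HOXB3 in DMSO replicate 2. HOXB1, which specifies a hindbrain segment in mouse, had 15, 16 and 19 counts with dBRD9A and 24, 22 and 21 counts with DMSO. It had 0 counts in every library of shSS18-SSX1-1 and of shRenilla, and 2, 0 and 0 counts with shSS18-SSX1-2. HOXB1 was thus detected in all 6 libraries of the first experiment and, with 2 counts in all, hardly in the 9 of the second. With a limit of 3 counts over the shRenilla libraries together, HOXB1 was at least 23.4-fold lower in shRenilla cells than in DMSO cells. Every other HOXB gene had at least 274 counts in every library.

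Levels of different genes were compared per kilobase of the canonical GENCODE transcript, which may not be the counted one. HOXB6 had the highest mean in each group, at 58.2 CPM per kb with dBRD9A, 56.9 with DMSO, 38.1 with shSS18-SSX1-1, 37.5 with shSS18-SSX1-2 and 63.6 with shRenilla. Of its exonic bases 11.2% also lie in exons of HOXB3 on the same strand and 18.2% in exons of the antisense RNA HOXB-AS3. Its level may thus include reads of these genes. HOXB1, HOXB4 and HOXB13 took the lowest 3 places in every group. In DMSO cells HOXB6 was followed by HOXB3 (55.2 CPM per kb), HOXB2 (48.1), HOXB5 (43.3), HOXB7 (32.4), HOXB9 (27.5), HOXB8 (19.1), HOXB4 (8.91) and HOXB13 (6.63). HOXB6 and HOXB3 lay within their spread of each other there (SD 4.34 and 10.5 CPM before division by length). In shRenilla cells HOXB9 took the second place at 52.0 CPM per kb. The genes at both ends of the cluster, HOXB1 and HOXB13, were thus among the least abundant, and so was HOXB4 in its middle. HOXB4 and HOXB13 exchanged places under both hairpins, with HOXB13 at 11.8 and HOXB4 at 7.31 CPM per kb for shSS18-SSX1-1.

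**Figure D1:**
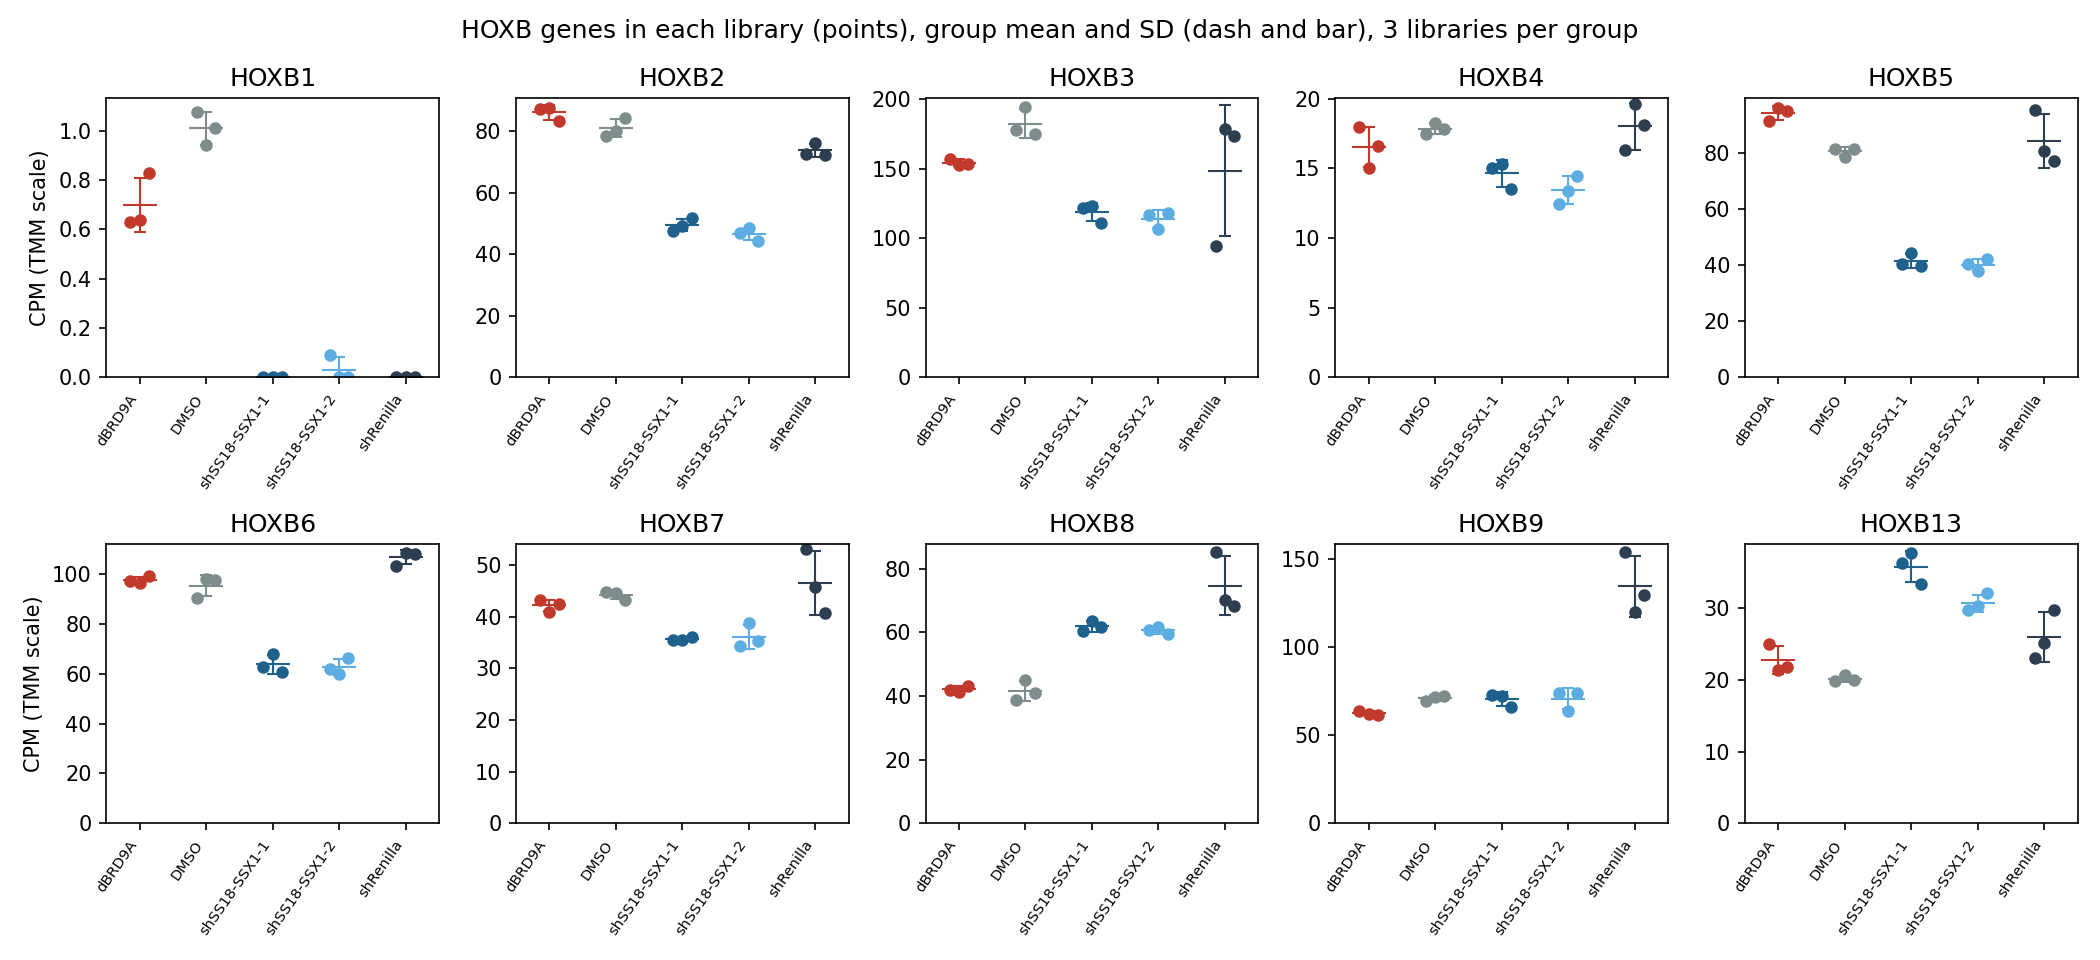
CPM of the 10 HOXB genes (vertical axes, TMM scale, each from 0) in the 15 libraries of 5 groups (horizontal axes); points are libraries, dashes group means and bars SD over 3 libraries. HOXB2, HOXB5 and HOXB6 sit lower with both hairpins than with shRenilla, HOXB13 sits higher, and HOXB3 has 1 shRenilla library at 94.3 CPM below all others.

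The first comparison asks what 6 hr of dBRD9A did to the cluster. The changes were small and went both ways: HOXB3 and HOXB9 fell, HOXB5 and HOXB13 rose, and the other 6 genes did not pass the test (edgeR's quasi-likelihood test, adjusted p under 0.05, Benjamini-Hochberg over all 13651 genes tested). No HOXB gene moved by 1.5-fold with a call, where 0.593% of all genes were called lower and 2.23% higher by that fold. The 4 of 10 called stand beside a background of 35.9% of all genes called in either direction, with 18.2% lower and 17.7% higher. The 10 genes had a median of -0.02 on the log2 scale, against 0.01 over all genes. The share of HOXB genes called is close to that of all genes.

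HOXB3, a regulator of hindbrain and blood progenitor identity, had 157, 153 and 153 CPM with dBRD9A, against 178, 194 and 175 CPM with DMSO. The groups did not overlap, and HOXB3 stood at -0.23 on the log2 scale (SE, the standard error, 0.0369; adjusted p = 8.22e-06). HOXB9, which patterns ribs and mammary gland in mouse, had 63.8, 62.2 and 61.8 CPM with dBRD9A, against 69.2, 71.9 and 72.0 CPM with DMSO. It too showed no overlap, at -0.17 (SE 0.0407, adjusted p = 0.00107). HOXB5, known for its part in the enteric nervous system and as a marker of blood stem cells in mouse, had 91.6, 96.2 and 95.1 CPM with dBRD9A, against 81.6, 78.6 and 81.5 CPM with DMSO. The rise was 0.24 (SE 0.0384, adjusted p = 1.37e-05), with all dBRD9A libraries above all DMSO libraries. HOXB13, a posterior gene of the prostate and a partner of the androgen receptor, had 25.0, 21.4 and 21.8 CPM with dBRD9A, against 19.8, 20.7 and 19.9 CPM with DMSO. The call of HOXB13, at 0.18 (adjusted p = 0.0281), did not hold when dBRD9A replicate 1 (0.11, adjusted p = 0.262), DMSO replicate 1 (0.16, adjusted p = 0.0603) or DMSO replicate 3 (0.16, adjusted p = 0.110) was left out.

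The remaining 6 genes give values only. HOXB2, a target of Hoxb1 in the mouse hindbrain, had 87.4, 87.7 and 83.3 CPM with dBRD9A, against 78.4, 80.2 and 84.2 CPM with DMSO, and these ranges overlap (log2 difference 0.10, adjusted p = 0.0547). HOXB2 passed the test when libraries were scaled by total counts (0.11, adjusted p = 0.0269) or by upper quartiles (0.12, adjusted p = 0.0222), and without dBRD9A replicate 3 (0.12, adjusted p = 0.0465). HOXB7, linked to proliferation in melanoma and breast cancer, had 43.1, 40.9 and 42.4 CPM with dBRD9A and 44.7, 44.7 and 43.2 CPM with DMSO. Its ranges lay side by side without overlap, yet the difference of -0.06 (95% interval -0.16 to 0.03) did not pass the test. HOXB4, which expands blood stem cells when overexpressed, had 17.9, 15.02 and 16.6 CPM with dBRD9A and 17.4, 18.2 and 17.8 CPM with DMSO, a log2 difference of -0.11 (95% interval -0.25 to 0.04). HOXB6, a gene of mesoderm and myeloid cells, had 97.3, 96.3 and 99.1 CPM with dBRD9A and 90.3, 98.1 and 97.5 CPM with DMSO. HOXB8 had 42.0, 41.2 and 43.2 CPM with dBRD9A and 38.7, 45.0 and 40.9 CPM with DMSO. For both genes the groups overlap, with log2 differences of 0.04 (95% interval -0.04 to 0.12) for HOXB6 and 0.03 (95% interval -0.08 to 0.13) for HOXB8. HOXB1, at under 25 counts a library, did not overlap between the groups, at 0.631, 0.639 and 0.827 CPM with dBRD9A and 1.08, 0.942 and 1.01 CPM with DMSO, and its log2 difference was -0.52 with an interval of -1.06 to 0.01 (adjusted p = 0.123). In all, 6 of the 10 genes had groups that did not overlap, beside 47.1% of all genes above a mean of 1 CPM, a level that HOXB1 did not reach.

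The spread within the dBRD9A experiment was small, with a common coefficient of variation of 2.78%. When the spread was estimated over all 15 libraries together, 0 of the 10 HOXB genes passed the test for dBRD9A, and HOXB5 came nearest (log2 fold change 0.23, adjusted p = 0.0541). Over all genes that fit called 1500 of 14559, in place of 4906 of 13651.

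The second comparison asks what loss of the fusion did to the cluster by 96 hr. HOXB2, HOXB4, HOXB5, HOXB6, HOXB7, HOXB8 and HOXB9 fell when both hairpins were averaged against shRenilla, HOXB13 rose, HOXB3 did not pass the test and HOXB1 had too few counts to be tested. The 7 of 9 tested genes that fell stand beside 22.1% of all 14268 genes tested, the 1 that rose beside 22.5%, and the 8 together beside 44.6%. HOXB2, HOXB5, HOXB6 and HOXB9 fell by more than 1.5-fold, 4 of the 9 genes, where 5.9% of all genes did so. The 9 genes had a median of -0.39 on the log2 scale, against -0.01 over all genes. Groups did not overlap between the 6 hairpin libraries and shRenilla for 8 HOXB genes, all except HOXB1 and HOXB3, beside 38.7% of all genes.

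HOXB5 fell the most. It had 40.5, 44.1 and 39.7 CPM with shSS18-SSX1-1 and 40.4, 37.9 and 42.2 CPM with shSS18-SSX1-2, against 95.3, 80.6 and 77.0 CPM with shRenilla. Averaged over both hairpins HOXB5 stood at -1.07 (SE 0.0790, adjusted p = 1.17e-07), and the highest hairpin library lay far below the lowest shRenilla library. HOXB9 had 73.1, 72.2 and 65.8 CPM with shSS18-SSX1-1 and 74.2, 63.8 and 74.0 CPM with shSS18-SSX1-2, against 154, 120 and 130 CPM with shRenilla. HOXB9 stood at -0.95 (SE 0.0840, adjusted p = 6.30e-07). HOXB6 had 62.5, 68.0 and 60.8 CPM with shSS18-SSX1-1 and 62.0, 59.99 and 66.3 CPM with shSS18-SSX1-2, against 103, 108 and 108 CPM with shRenilla. HOXB6 stood at -0.77 (SE 0.0634, adjusted p = 2.95e-07). HOXB2 had 47.7, 49.2 and 51.6 CPM with shSS18-SSX1-1 and 46.9, 48.4 and 44.3 CPM with shSS18-SSX1-2, against 72.6, 76.3 and 72.4 CPM with shRenilla, and stood at -0.63 (SE 0.0641, adjusted p = 2.19e-06). For all these genes every hairpin library lay below every shRenilla library.

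Smaller falls were seen for HOXB4, HOXB7 and HOXB8. HOXB7 had 35.4, 35.4 and 36.002 CPM with shSS18-SSX1-1 and 34.4, 38.8 and 35.2 CPM with shSS18-SSX1-2, against 53.1, 45.8 and 40.7 CPM with shRenilla, a log2 fold change of -0.39 (adjusted p = 0.00206). HOXB4 had 15.04, 15.3 and 13.5 CPM with shSS18-SSX1-1 and 12.5, 13.4 and 14.4 CPM with shSS18-SSX1-2, against 16.3, 19.6 and 18.1 CPM with shRenilla, a log2 fold change of -0.38 (adjusted p = 0.00323). For both genes the nearest hairpin and shRenilla libraries were close to each other. HOXB8, whose microRNA site is given above, had 60.4, 63.7 and 61.5 CPM with shSS18-SSX1-1 and 60.8, 61.6 and 59.4 CPM with shSS18-SSX1-2, against 85.3, 70.3 and 68.4 CPM with shRenilla. Its log2 fold change was -0.30 (adjusted p = 0.00584).

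HOXB13 went the other way. It had 36.3, 37.7 and 33.4 CPM with shSS18-SSX1-1 and 29.8, 30.3 and 32.0 CPM with shSS18-SSX1-2, against 23.0, 25.1 and 29.8 CPM with shRenilla, so that the lowest hairpin library lay just above the highest shRenilla library. HOXB13 stood at 0.34 on the log2 scale (SE 0.0871, adjusted p = 0.00601). HOXB3 had 122, 123 and 111 CPM with shSS18-SSX1-1 and 117, 107 and 118 CPM with shSS18-SSX1-2, against 94.3, 178 and 174 CPM with shRenilla. The hairpin libraries fell between the shRenilla libraries, above replicate 1 and below the other 2. The HOXB3 log2 fold change was -0.37 (95% interval -0.68 to -0.05, adjusted p = 0.0546), and without shRenilla replicate 1 it was -0.60 (adjusted p = 3.65e-06). Then 9 of 9 HOXB genes passed the test, 8 of them lower, beside 6120 of all 14412 genes called and 2720 lower. HOXB3 also passed with DESeq2 (-0.36, adjusted p = 0.0372) and with the spread taken from all 15 libraries (-0.35, adjusted p = 0.0260).

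Along the chromosome the fold changes did not step from one end to the other. In the order of the genes, HOXB2 stood at -0.63, HOXB3 at -0.37, HOXB4 at -0.38, HOXB5 at -1.07, HOXB6 at -0.77, HOXB7 at -0.39, HOXB8 at -0.30, HOXB9 at -0.95 and HOXB13 at 0.34. HOXB9 and HOXB8, which are neighbours, thus stood further apart than HOXB9 and HOXB5, which have 3 genes between them.

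Both hairpins were compared with the same shRenilla libraries, so their fold changes are not independent of each other. With shSS18-SSX1-1, 7 HOXB genes were lower and 1 higher, where 19.5% of all genes were lower and 22% higher. With shSS18-SSX1-2, 7 were lower and 0 higher, where 15.9% of all genes were lower and 18.3% higher. The genes that were lower were HOXB2 and HOXB4 to HOXB9 with either hairpin. HOXB5 stood at -1.03 with shSS18-SSX1-1 and at -1.10 with shSS18-SSX1-2, and HOXB9 at -0.94 and at -0.96. HOXB13 stood at 0.46 (adjusted p = 0.00202) with shSS18-SSX1-1 and at 0.22 (adjusted p = 0.109) with shSS18-SSX1-2. Called genes of either hairpin did not overlap with shRenilla, and 8 HOXB genes had no overlap for each hairpin, beside 48.3% of all genes for shSS18-SSX1-1 and 44.2% for shSS18-SSX1-2. The calls of HOXB4 and HOXB8 with shSS18-SSX1-1 (log2 fold changes -0.30 and -0.28) were near the threshold. That of HOXB4 was lost without shRenilla replicate 2 (-0.22, adjusted p = 0.108) or 3 (-0.31, adjusted p = 0.0584), without replicate 1 (-0.32, adjusted p = 0.0727), 2 (-0.32, adjusted p = 0.05625) or 3 (-0.24, adjusted p = 0.142) of shSS18-SSX1-1, and without shSS18-SSX1-2 replicate 1 (-0.29, adjusted p = 0.0505). That of HOXB8 was lost without shRenilla replicate 1 (-0.15, adjusted p = 0.0753), without replicate 1 (-0.25, adjusted p = 0.1005), 2 (-0.28, adjusted p = 0.0556) or 3 (-0.26, adjusted p = 0.0781) of shSS18-SSX1-1, and without shSS18-SSX1-2 replicate 1 (-0.26, adjusted p = 0.0503). With shSS18-SSX1-2, leaving out its replicate 1 ended the calls of HOXB7 (-0.34, adjusted p = 0.0521) and HOXB8 (-0.31, adjusted p = 0.0518), and leaving out shRenilla replicate 3 added HOXB13 (0.32, adjusted p = 0.0233). HOXB3 passed for each hairpin without shRenilla replicate 1, at -0.555 with shSS18-SSX1-1 (adjusted p = 2.54e-05) and at -0.63 with shSS18-SSX1-2 (adjusted p = 9.25e-06).

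Set directly against each other, shSS18-SSX1-2 and shSS18-SSX1-1 gave 0 calls among the 9 tested HOXB genes with edgeR, where 0.147% of all genes were called. DESeq2 and limma voom also gave 0 HOXB calls, where they called 162 and 20 of all genes. HOXB13 was the gene with an unadjusted p under 0.05, 1 of 9, at a log2 difference of -0.24 (95% interval -0.45 to -0.03, adjusted p = 0.509). It was also the HOXB gene whose hairpin groups did not overlap, 1 of 10, beside 18.1% of all genes. Of the other genes, HOXB3 had the widest 95% interval of the difference, -0.45 to 0.29, and the intervals leave room for differences of that size.

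**Figure D2:**
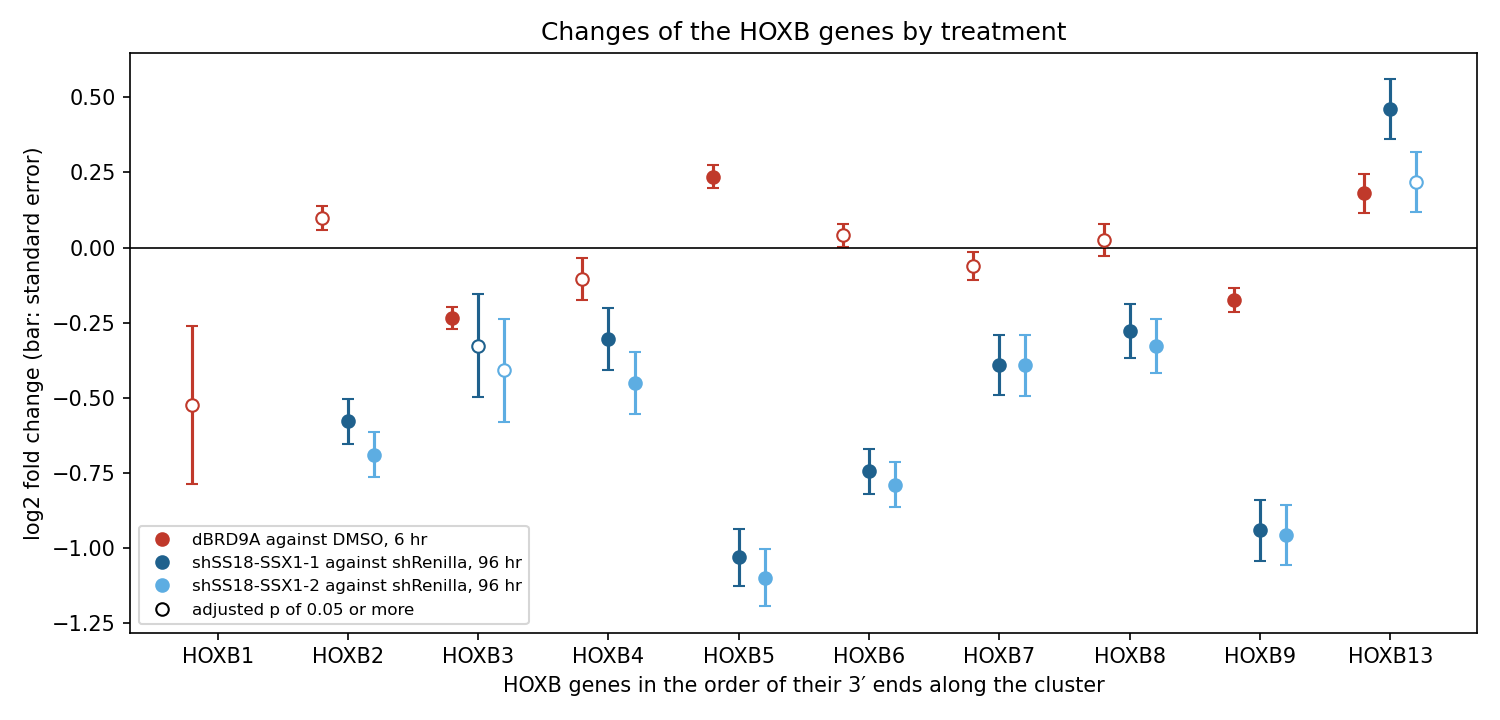
Log2 fold changes (vertical axis) with their standard errors for the HOXB genes in the order of their 3′ ends (horizontal axis), for dBRD9A against DMSO and for each hairpin against the shared shRenilla libraries; filled points passed an adjusted p of 0.05. With the hairpins HOXB5 stands at -1.03 and -1.10 and HOXB9 at -0.94 and -0.96, while no gene passes 0.24 in size with dBRD9A except HOXB1 (-0.52), which was not called.

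The third comparison sets both effects against each other in one fit of all 15 libraries, as the dBRD9A effect minus the mean knockdown effect. The dBRD9A effect was higher, meaning less of a fall or more of a rise, for HOXB2, HOXB5, HOXB6, HOXB7, HOXB8 and HOXB9. These are 6 of the 9 genes other than HOXB1, where 17.5% of all genes differed in that direction and 36.6% in either. HOXB5 differed by 1.28 on the log2 scale (95% interval 1.07 to 1.48, adjusted p = 1.27e-08). In the separate fits of the experiments HOXB5 rose with dBRD9A and fell with the hairpins. In the fit of all 15 libraries its rise was not called (adjusted p = 0.0541). HOXB6 differed by 0.79 (95% interval 0.62 to 0.95), HOXB9 by 0.75 (95% interval 0.53 to 0.98) and HOXB2 by 0.71 (95% interval 0.55 to 0.87). HOXB9 fell in both separate fits, by 0.17 with dBRD9A and by 0.95 with the hairpins. HOXB7 and HOXB8 differed by 0.31 each (adjusted p = 0.0287 and 0.0266). The call of HOXB7 was lost without shRenilla replicate 1 (0.20, adjusted p = 0.0675), dBRD9A replicate 1 (0.29, adjusted p = 0.0701) or 3 (0.30, adjusted p = 0.0590), or DMSO replicate 3 (0.29, adjusted p = 0.0702). The call of HOXB8 was lost without shRenilla replicate 1 (0.20, adjusted p = 0.0544), dBRD9A replicate 1 (0.31, adjusted p = 0.0519) or 3 (0.29, adjusted p = 0.0658), or DMSO replicate 1 (0.26, adjusted p = 0.0866) or 3 (0.30, adjusted p = 0.0635).

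For the other 3 genes a difference was not shown. HOXB3 differed by 0.11 (95% interval -0.30 to 0.52), and by 0.36 without shRenilla replicate 1 (adjusted p = 0.000768). HOXB4 differed by 0.25 (SE 0.120, adjusted p = 0.111), and by 0.32 without shRenilla replicate 1 (adjusted p = 0.0311). HOXB13 differed by -0.18 (95% interval -0.43 to 0.07), with a rise called in the separate fit of each experiment, and by -0.29 without shRenilla replicate 3 (adjusted p = 0.0431). The experiments also differed in duration, 6 hr and 96 hr, and in the use of virus, so that treatment, time and infection cannot be told apart in these differences.

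**Figure D3:**
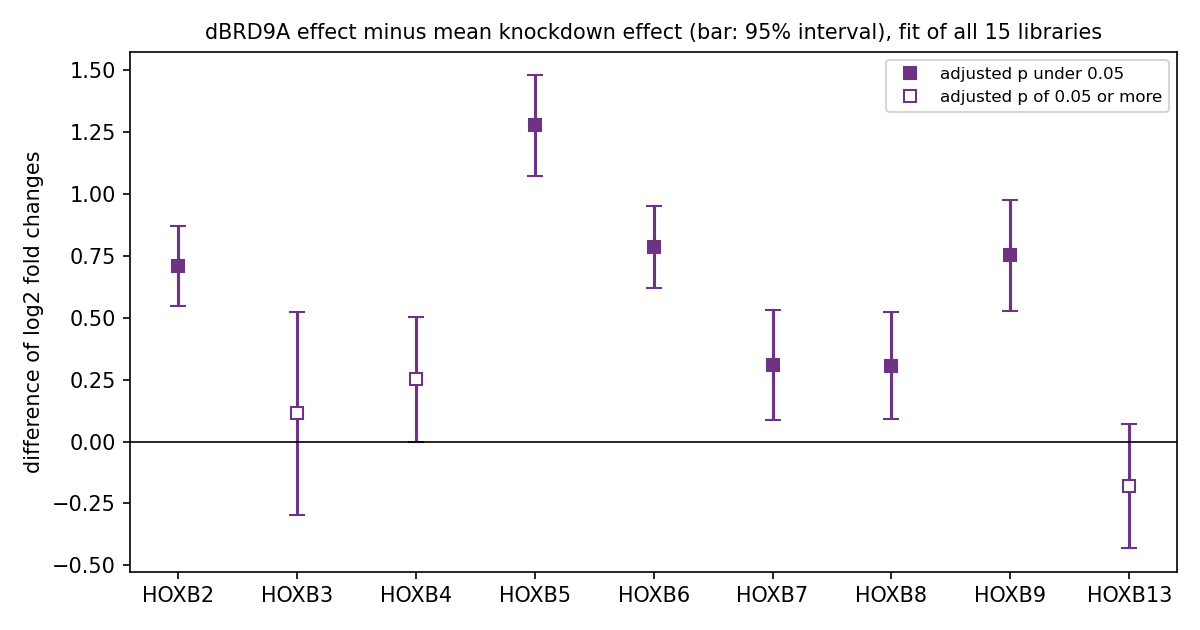
Difference between the dBRD9A effect and the mean knockdown effect (vertical axis, log2) for 9 HOXB genes (horizontal axis), with 95% intervals from the fit of all 15 libraries; filled squares passed an adjusted p of 0.05. HOXB5 stands highest at 1.28, and HOXB13 is the gene below 0, at -0.18.

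The control states of the experiments were not alike for the cluster. HOXB8 had 85.3, 70.3 and 68.4 CPM in shRenilla cells, against 38.7, 45.0 and 40.9 CPM in DMSO cells, a log2 difference of 0.85 (adjusted p = 4.38e-08). HOXB9 had 154, 120 and 130 CPM in shRenilla cells, against 69.2, 71.9 and 72.0 CPM in DMSO cells, a log2 difference of 0.92 (adjusted p = 2.27e-08). The HOXB9 level of the hairpin groups, 63.8 to 74.2 CPM, thus covered the range of the DMSO libraries, whereas their HOXB8 level, 59.4 to 63.7 CPM, lay between DMSO and shRenilla. HOXB13 (0.36, adjusted p = 0.00259) and HOXB6 (0.16, adjusted p = 0.0299) were also higher in shRenilla cells, and HOXB1 was lower, by the bound given above. With 4 of 10 higher and 1 lower, beside 27.9% and 26.6% of all genes and 54.5% in either direction, the cluster as a whole was called about as often as other genes. Groups did not overlap for 6 of 10, beside 58.4%. HOXB2, HOXB3, HOXB4, HOXB5 and HOXB7 did not pass the test, with log2 differences of -0.30 to 0.08. Without shRenilla replicate 2, HOXB2 (-0.16, adjusted p = 0.0403) and HOXB3 (-0.45, adjusted p = 0.01435) were lower in shRenilla cells, and HOXB3 also without replicate 3 (-0.42, adjusted p = 0.0335). HOXB6 missed the threshold when DMSO replicate 1 (0.12, adjusted p = 0.142), shRenilla replicate 2 (0.15, adjusted p = 0.0589) or shRenilla replicate 3 (0.15, adjusted p = 0.0673) was left out. Experiment, virus and time cannot be told apart here.

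Summed over the cluster, HOXB transcripts came to 614 to 626 CPM with dBRD9A and 619 to 653 CPM with DMSO, which overlap. They came to 473 to 509 CPM with shSS18-SSX1-1 and 461 to 486 CPM with shSS18-SSX1-2, against 697 to 724 CPM with shRenilla. In bulk samples fewer cells of a type and less RNA per cell cannot be told apart. Among the HOXB genes, patterns over the 15 libraries were compared by the root mean square distance of centred log2 CPM, with 0.5 CPM added to every value. HOXB4 and HOXB7 were the nearest pair at 0.135, followed by HOXB2 and HOXB6 at 0.147, and HOXB8 was nearest to HOXB9 at 0.285 and to HOXB13 at 0.288. HOXB1, at or near 0 in 9 libraries, was at 0.495 or more from every other. With at most 1.08 CPM in any library, its distances depend on the 0.5 CPM added.

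HOXB3 had the highest mean CPM of the members, and the gene outside the list with the pattern most like it was HOXB-AS1, an RNA transcribed from the opposite strand. Its distance over the 15 libraries was 0.0798, smaller than that of the next 4 of 11056 genes above a mean of 5 CPM, RALGAPA1P (0.112), XPO4 (0.125), SPIN4 (0.125) and NUPL1 (0.127). HOXB-AS1 had 26.0, 25.9 and 24.3 CPM with dBRD9A, against 28.2, 32.4 and 26.5 CPM with DMSO. It had 18.5, 17.8 and 16.8 CPM with shSS18-SSX1-1 and 19.5, 15.5 and 19.3 CPM with shSS18-SSX1-2, against 13.0, 29.3 and 27.1 CPM with shRenilla. Replicate 1 of shRenilla was low for HOXB-AS1 as for HOXB3. Of the 806 exonic bases of HOXB-AS1, 279 (34.6%) also lie in exons of HOXB3, and the sources do not say whether counting used strand, so reads of these genes cannot be told apart in the shared part. HOXB-AS1 was lower with dBRD9A by a log2 fold change of -0.19 (adjusted p = 0.0192), and its knockdown difference of -0.38 did not pass the test (adjusted p = 0.116).

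**Figure D4:**
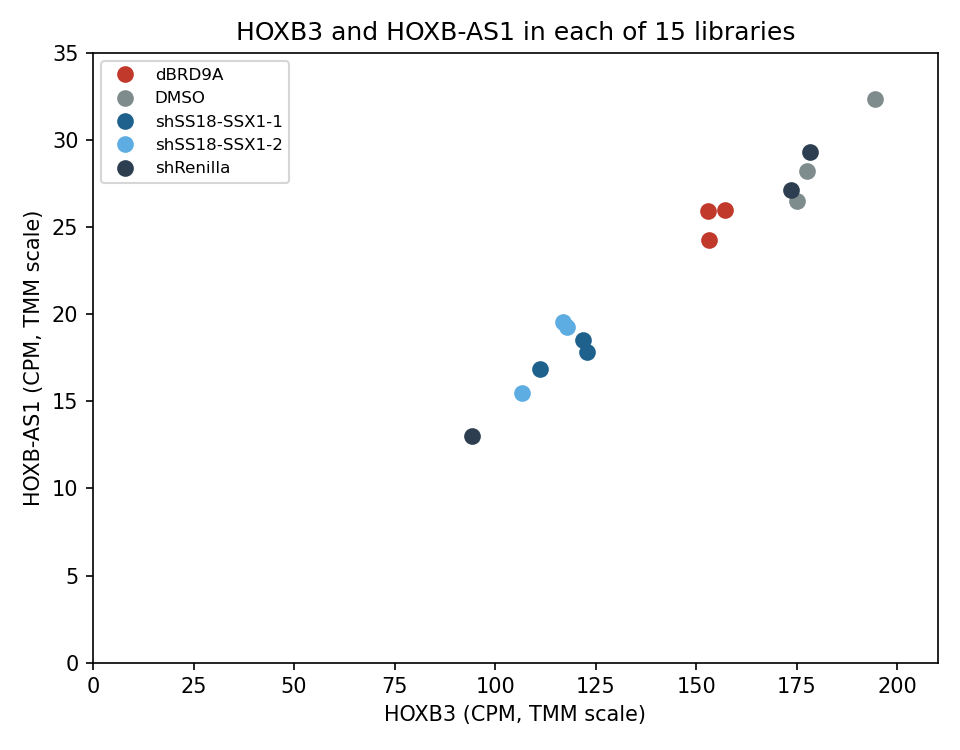
HOXB-AS1 (vertical axis) against HOXB3 (horizontal axis), both in CPM on the TMM scale, in each of 15 libraries. The lowest point is shRenilla replicate 1, at 94.3 CPM of HOXB3 and 13.0 CPM of HOXB-AS1, below all 6 hairpin libraries.

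HOXB-AS3, the other antisense RNA with enough counts, shares bases with HOXB6, where 18.2% of the exonic bases lie in both, and with HOXB5 (3.93%). Of the 434 exonic bases of its canonical GENCODE transcript, which may not be the counted one, 77 (17.7%) also lie in exons of HOXB3 and 58 (13.4%) in exons of HOXB-AS1, and reads in these parts cannot be told apart either. It had 30.6, 31.1 and 31.6 CPM with shSS18-SSX1-1 and 25.3, 29.3 and 27.8 CPM with shSS18-SSX1-2, against 44.1, 39.8 and 40.6 CPM with shRenilla. The groups did not overlap, and HOXB-AS3 stood at -0.52 (adjusted p = 5.17e-05). With dBRD9A the log2 difference was -0.01 (adjusted p = 0.956). These values are for the transcript row with the most counts, and other rows, not tested singly, differed. Another had 202, 209 and 180 raw counts with dBRD9A, against 260, 262 and 235 with DMSO. That transcript had 169, 153 and 222 with shSS18-SSX1-1 and 111, 183 and 126 with shSS18-SSX1-2, against 188, 166 and 121 with shRenilla. A further transcript had 297, 292 and 315 with dBRD9A, against 288, 322 and 275 with DMSO. Of 7 non-coding or small neighbours inside the cluster with a row, 2 were tested for dBRD9A and 3 for the hairpins. In each 1 was lower, beside 18.2% and 22.1% of all genes. The last of these, PRAC2, which lies near HOXB13, had 97 counts over all libraries.

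Of 11 genes that flank the cluster 8 were tested, with a median log2 fold change of 0.01 for the hairpins and -0.01 for dBRD9A, beside -0.39 and -0.02 for the HOXB genes. The medians were not tested against each other. With the hairpins 2 flanking genes were lower and 1 higher, beside 22.1% and 22.5% of all genes. CBX1, which encodes a heterochromatin protein, stood at -0.31 (adjusted p = 0.000375), whereas NFE2L1, a transcription factor of the proteasome response, stood at 0.13 (adjusted p = 0.132), IGF2BP1, an RNA-binding protein, at -0.03 and UBE2Z, a ubiquitin-conjugating enzyme, at 0.04. The other called genes, named after their values were seen, were ATP5G1 (-0.40) and CALCOCO2 (0.29). CBX1 and ATP5G1 thus stood at values like those of HOXB4, HOXB7 and HOXB8. With dBRD9A 2 were lower and 1 higher, beside 18.2% and 17.7% of all genes, with IGF2BP1 at -0.20.

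Of the other HOX clusters, HOXA genes reached at most 7 counts in any library and HOXD genes at most 17, whereas HOXC genes were abundant. HOXC transcripts summed to 304 to 314 CPM with shSS18-SSX1-1 and 304 to 316 CPM with shSS18-SSX1-2, against 610 to 616 CPM with shRenilla, and to 750 to 761 CPM with dBRD9A, against 780 to 810 CPM with DMSO. All 9 HOXC genes fell with the hairpins, 7 of them by more than 1.5-fold, beside 22.1% and 5.9% of all genes. Their median log2 fold change was -0.75. HOXC10, a gene of the lumbar region, stood at -1.63 and HOXC13, a gene of hair and nail, at -0.75. HOXC13, the paralogue of HOXB13, thus fell where HOXB13 rose. With dBRD9A, 4 HOXC genes were lower and 1 higher, beside 18.2% and 17.7% of all genes, with HOXC12 at -0.20 and HOXC13 at 0.31.

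**Figure D5:**
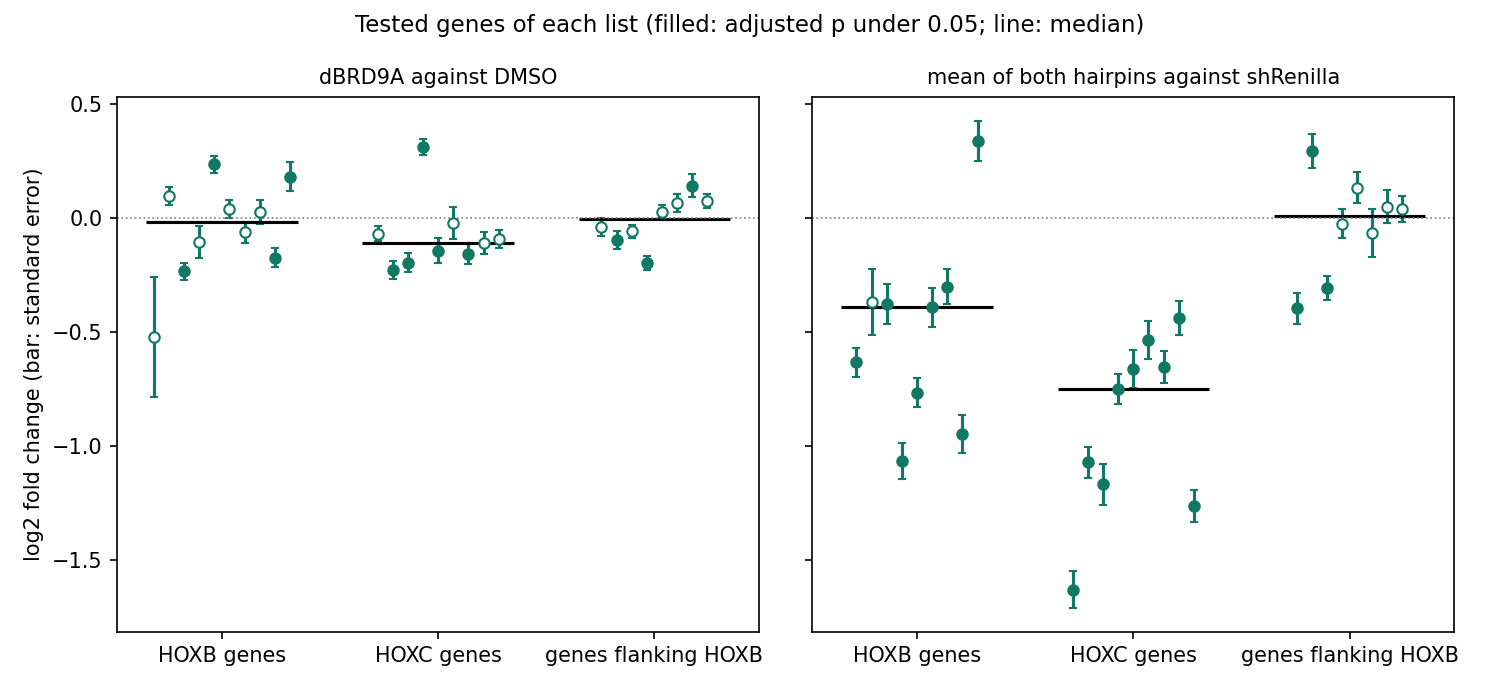
Log2 fold changes (vertical axis) with standard errors for the tested HOXB genes, HOXC genes and genes flanking HOXB (horizontal axis), for dBRD9A against DMSO on the left and the mean of both hairpins against shRenilla on the right; lines are medians and filled points passed an adjusted p of 0.05. The medians on the right are -0.39, -0.75 and 0.01.

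Genes that act with or on HOX genes were counted from lists, to be read beside 18.2% of all genes lower and 17.7% higher with dBRD9A, and 22.1% lower and 22.5% higher with the hairpins. Of 9 PBX, MEIS and PKNOX genes, whose proteins bind DNA beside HOX proteins, 5 were lower and 1 higher with dBRD9A, and 2 were lower and 1 higher with the hairpins. PBX3 was lower in both, at -0.21 with dBRD9A and at -0.73 with the hairpins. Of 18 retinoic acid genes, 12 were tested for dBRD9A, with 5 lower and 1 higher, and 11 for the hairpins, with 2 lower and 3 higher. RARG, a retinoic acid receptor, was lower with dBRD9A (-0.38, adjusted p = 4.60e-10) and higher with the hairpins (0.37, adjusted p = 0.000828), and ALDH1A3, an enzyme that makes retinoic acid, was lower in both (-0.14 and -0.76). Of 13 genes of MLL, menin, Polycomb and other chromatin regulators, 3 were lower and 1 higher with dBRD9A, and 6 were lower and 1 higher with the hairpins. BCOR, a subunit of a Polycomb complex, stood at 0.07 with dBRD9A (adjusted p = 0.0418) and at -0.87 with the hairpins (adjusted p = 1.29e-07).

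Markers of other cell types moved with the hairpins beside the HOXB genes. Of 11 fibroblast and smooth muscle markers 8 were tested and 7 were higher with the hairpins, beside 22.5% of all genes. Their summed level was 1298 to 1314 CPM with shSS18-SSX1-1 and 1453 to 1600 CPM with shSS18-SSX1-2, against 69.7 to 89.2 CPM with shRenilla. With dBRD9A it was 81.3 to 87.1 CPM, against 82.0 to 85.5 CPM with DMSO. There 2 of 6 tested markers were higher and 1 lower, beside 17.7% and 18.2% of all genes. COL1A1, a fibrillar collagen, stood at 7.13 on the log2 scale with the hairpins and at 0.69 with dBRD9A (adjusted p = 1.15e-05), while DCN and LUM, which define many fibroblasts, reached at most 1 and 4 counts in any library. The part of these markers in the HOXB results was not tested. Of 9 leukocyte and endothelial markers 1, CD68, had enough counts to be tested. It was higher for the mean of both hairpins (0.51, adjusted p = 0.0260), beside 22.5% of all genes. For the hairpins singly it was called with shSS18-SSX1-2 (adjusted p = 0.0418) and not with shSS18-SSX1-1 (adjusted p = 0.0677). The list summed to at most 7.09 CPM in any library, and CDH5 and KDR were at 0 in all 15. VWF, an endothelial marker, had 1 to 7 counts in each hairpin library and 0 in every other library.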

How the data were processed

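RNA-seq of 15 HSSYII libraries was analysed. According to the submitters' processing notes STAR alignments to hg19 (GRCh37) were counted with featureCounts, and the authors deposited raw counts for each transcript. Tool versions and the strand setting of counting: not given in the sources used here. The kit is NEBNext Ultra in the methods but NEBNext Ultra II in the labels. The methods also name spike-in controls, and the tables used here hold 0 spike-in rows. Of 48104 transcript rows, the row with the highest total per symbol was kept. In the table of dBRD9A replicate 2, a broken symbol in 4535 rows shifted the count, which was read from the end of the line. Of 80 rows whose symbol a spreadsheet had made a date, all but 2 were repaired by their transcript identifier.

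Counts were tested with edgeR 4.0.16 (R 4.3.3) by the quasi-likelihood test, robust, with filterByExpr (minimum count 10) and TMM scaling, within the dBRD9A experiment, within the knockdown experiment, and over all 15 libraries for the difference of effects and for shRenilla against DMSO. A standard error was taken as the fold change (log2) over the root of its F statistic, and 95% intervals use the residual degrees of freedom of the fit. Genes were called at an adjusted p under 0.05, by Benjamini-Hochberg over all genes tested. All 10 members are named; of each other list, at most 4 members with the highest mean CPM in the comparison are named, and some results that this rule covers are not reported here. Exceptions to the rule, named after their values were seen, are ATP5G1 and CALCOCO2, the defining markers DCN, LUM, CDH5 and KDR, and MIR196A1 for its sequence. Members and lists were chosen with earlier results of these data known. Positions are from GENCODE on GRCh37, and promoter and mature microRNA sequences from RefSeq on GRCh38.p14. Alternatives were other scalings, no filter, DESeq2 1.42.0, limma 3.58.1 with voom, summed transcript rows, a replicate block, 1 fit of all libraries, and leaving out each library in turn.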

Additional observations from a re-analysis of the deposited data

Results flagged for a closer look

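In 6 HOXB genes the effect of dBRD9A and the mean effect of both hairpins differed by a test of the difference itself, in the fit of all 15 libraries. The dBRD9A effect minus the knockdown effect was 0.71 for HOXB2, 1.28 for HOXB5, 0.79 for HOXB6, 0.31 for HOXB7, 0.31 for HOXB8 and 0.75 for HOXB9 on the log2 scale, with adjusted p-values from edgeR's quasi-likelihood test of 1.01e-06, 1.27e-08, 4.18e-07, 0.0287, 0.0266 and 2.47e-05 in that order. In the separate fits of the 2 experiments HOXB5 was called in opposite directions and HOXB9 fell in both. HOXB2, HOXB6, HOXB7 and HOXB8 were called there with the hairpins and not with dBRD9A. In the fit of all 15 libraries the dBRD9A effects of HOXB5 (0.23, adjusted p = 0.0541) and HOXB9 (-0.18, adjusted p = 0.185) were not called. With 3 libraries in each group, no test for a single library far from its group was run.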

How the results depend on the processing

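Of 133 recomputed counts of called HOXB genes, 132 stayed within 1.5 times the reported count. The exception was dBRD9A against DMSO with the spread estimated over all 15 libraries, where 0 HOXB genes passed in place of 4, beside 1500 in place of 4906 of all genes. Leaving out each library in turn gave 3 to 5 called HOXB genes for dBRD9A, 8 to 9 for the mean of both hairpins, 6 to 8 for shSS18-SSX1-1, 5 to 8 for shSS18-SSX1-2, 0 for the hairpins against each other, 4 to 7 for the difference of effects and 4 to 6 for shRenilla against DMSO. Of at most 13833 genes tested, these fits called 3754 to 5112 for dBRD9A. Of at most 14426 they called 5551 to 6684 for the mean of both hairpins and 5 to 112 for the hairpins against each other. For shSS18-SSX1-1 it was 4677 to 6478, and for shSS18-SSX1-2 3518 to 5406. Of at most 14779 they called 4486 to 6099 for the difference of effects and 7074 to 8183 for shRenilla against DMSO. Of 1068 recomputed fold changes of single genes, 1006 kept their direction and their side of the threshold, 36 lost a call, 18 gained one and 8 changed sign, none of them called under either setting. These 8 sign changes came from leaving out single libraries. The values were 0.04 (range -0.00094 to 0.059) for HOXB6 and 0.03 (range -0.028 to 0.087) for HOXB8 with dBRD9A, 0.11 (range -0.039 to 0.36) for HOXB3 in the difference of effects, and, for shRenilla against DMSO, 0.01 (range -0.055 to 0.083) for HOXB4, 0.07 (range -0.031 to 0.13) for HOXB5 and 0.08 (range -0.031 to 0.16) for HOXB7. The cause was not tested. The 1068 values leave out HOXB1 in the difference of effects and in shRenilla against DMSO. For the hairpins against each other they hold HOXB13 only. In that comparison 9 of 9 HOXB genes were below 0 in the reported fit. With total counts, upper quartiles or DESeq2 8 were below 0, and 7 without replicate 1 or 2 of shSS18-SSX1-1, with 0 calls each time. HOXB13 with dBRD9A lost its call in 6 of 15 alternatives, DESeq2 among them (adjusted p = 0.104). No scaling moved the median of all genes by more than 0.1 on the log2 scale. Hairpins against each other gave 21 called genes of all, and 162 with DESeq2, 123 without a filter and 246 in the fit of all 15 libraries.

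Replicate numbers are shared across groups, and the correlations of the deviations of same-numbered libraries were not all above 0.1. They were -0.108, 0.004 and -0.0602 for replicates 1, 2 and 3 of dBRD9A with DMSO, -0.407, -0.575 and -0.49 for shSS18-SSX1-1 with shRenilla, -0.087, 0.467 and 0.296 for shSS18-SSX1-2 with shRenilla, and 0.29, -0.614 and -0.53 for the hairpins with each other, so the numbers were not taken to pair libraries. With the replicate block, HOXB calls were 4 for dBRD9A, 8 for the mean of both hairpins, 7 for shSS18-SSX1-1, 7 for shSS18-SSX1-2, 0 for the hairpins against each other, 6 for the difference of effects and 5 for shRenilla against DMSO. Over all genes the block gave, in the same order, 4794 calls of 13651, then 5650, 5180, 4234 and 13 of 14268, then 4930 and 7632 of 14559. HOXB4 with shSS18-SSX1-1 was the gene called without the block and not with it (-0.30, adjusted p = 0.0537). HOXB1, at under 25 counts in every library, is the member whose values the depth limits.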
